A study of Mus musculus with 24 samples.

Results

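The genes described here are 10 genes of pericellular proteolysis, chosen by symbol in both expression tables out of the 56691 genes listed in each. They are the matrix metalloproteinases *Mmp9*, *Mmp14* and *Mmp19*, the metalloproteinase inhibitors *Timp1*, *Timp2* and *Timp3*, the sheddases *Adam8* and *Adam17*, and the urokinase pair *Plau* and *Plaur*. They were measured by poly(A) RNA-seq in 24 libraries, 3 in each of 8 groups. RAW264.7 cells, a macrophage-like line derived from a mouse leukaemia, were either wild type or edited at *Olfml3* with lentiviral CRISPR-Cas9 and grown up from sorted single cells, so that the edited groups stand for clonal cells. Bone marrow-derived macrophages (BMDMs) came from 8-week-old male C57BL/6 mice, wild type or with *Olfml3* knocked out in all tissues, and were grown for 6 days in medium with 20% L929 cell supernatant, which supplies the growth factor of macrophages. Each of these 4 kinds of cell was given PBS or 100 ng/mL lipopolysaccharide (LPS, the endotoxin of Gram-negative bacteria) for 4 h. The study speaks of biological replicates, but separate cultures or mice for the 3 libraries of a group are not stated in the sources used here, so the p-values measure the spread between these libraries, part of which may be technical.

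Matrix metalloproteinases are zinc enzymes that cut collagens, gelatin and other matrix proteins. The gelatinase MMP9 is secreted, whereas MMP14 (MT1-MMP) stays in the plasma membrane, where it also activates other metalloproteinases. TIMPs bind these enzymes and block them, and TIMP2 additionally takes part in the activation of pro-MMP2 by MMP14, while TIMP3 stays bound to matrix and inhibits ADAM17. ADAM17 releases membrane-bound TNF and other ectodomains, and ADAM8 is a leukocyte protease of the same family. Urokinase, the product of *Plau*, converts plasminogen to plasmin at the cell surface, where it is held by its receptor, the product of *Plaur*. Macrophages use this machinery to cross matrix and to release cytokines and receptors from the membrane.

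The 12 RAW264.7 libraries held between 11638273 and 16478616 counts, and the 12 BMDM libraries between 17121240 and 22873094. The targeted gene *Olfml3* was at 0.61, 0.53 and 0.65 FPKM (fragments scaled to gene length and library size) in wild-type BMDMs with PBS and at 0.03, 0.01 and 0.01 in knockout BMDMs. In RAW264.7 it went against the label, with 0.13, 0.13 and 0.29 FPKM in wild type with LPS and 18.93, 18.77 and 18.33 in the edited cells with LPS, which are therefore called the libraries labelled knockout throughout. Among the PBS libraries labelled knockout of RAW264.7, replicate 1 stood apart, since over all genes its log2 expression correlated at 0.9639 on average with its own group and at 0.9734 with wild type with PBS. Of 8 macrophage markers, 7 in RAW264.7 and 8 in BMDMs reached a group mean of 1 FPKM in every group, and *Mertk* was listed at 0 in all RAW264.7 groups. The summed FPKM of these markers ran from 3344 to 3402 in wild-type RAW264.7 with PBS but from 1145 to 1420 in those labelled knockout, and from 3880 to 4013 against 1215 to 1278 with LPS. Most of that difference lay in *Lyz2* (means of 2052 and 317 FPKM with PBS) and *Cd14* (445 and 107). *Cd68* (578 and 454), *Adgre1* (10.7 and 4.67) and *Itgam* (6.43 and 1.88) were also lower in value in the PBS libraries labelled knockout. *Csf1r* (263 and 340) and *Fcgr1* (18.3 and 22.1) were higher in value there. With LPS these 2 were lower in value in the labelled knockout, *Csf1r* at 100 and 78.5 FPKM and *Fcgr1* at 22.3 and 7.96. The part of these markers in the results below was not tested.

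The tests were made with limma on log2(FPKM + 0.1), each cell type in a fit of its own, and a differentially expressed gene (DEG) had a Benjamini-Hochberg adjusted p under 0.05 over all genes tested together with a 1.5-fold or larger change. Rose, fell, higher and lower are used of DEGs. Because of the added 0.1, fold changes of genes with low FPKM are understated on this scale. All 10 genes were tested in BMDMs and 9 in RAW264.7, where *Timp3* was listed at 0 in all 12 libraries. The 2 tables were normalised separately, so levels are set side by side across cell types without a test. With LPS the bulk of genes drifted down on this scale: the median log2 fold change of genes with at least 1 FPKM was -0.73 in wild-type BMDMs and -0.21 in wild-type RAW264.7, and scaling by median ratios moved these medians up by 0.79 and 0.23. In the libraries labelled knockout of RAW264.7 and in knockout BMDMs the same scaling moved the LPS medians by 0.26 and 0.68. Between genotypes it moved the median by -0.15 in BMDMs with LPS, where the median was 0.14, and by -0.11 in the BMDM interaction, and TPM scaling moved that of RAW264.7 by 0.19 with PBS and 0.23 with LPS. Results are therefore also given under median-ratio scaling where it changed a call.

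At rest, wild-type RAW264.7 cells expressed *Plau* at 83.49, 71.19 and 68.26 FPKM, *Adam8* at 52.59, 55.52 and 54.93, *Plaur* at 19.66, 21.04 and 17.94, *Adam17* at 15.57, 14.61 and 14.89 and *Timp1* at 9.7, 9.98 and 9.17. The matrix metalloproteinases were scarce in them. *Mmp19* lay between 0.44 and 0.58 FPKM, *Mmp9* had 4 counts in the 3 libraries together and *Mmp14* had 0, which allows up to 3 counts over the group. *Timp2* had 7 counts in these 3 libraries.

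Resting wild-type BMDMs held more of most of these transcripts. *Plau* stood at 410.7, 437.05 and 434.44 FPKM, the highest level of the 10 genes, followed by *Adam8* at 259.11, 260.67 and 268.95 and *Timp2* at 112.44, 113.02 and 111.99. *Adam17* (42.22 to 43.5 FPKM) and *Plaur* (26.17 to 28.59) came next, *Mmp19* (6.84 to 7.36) and *Mmp14* (5.47 to 5.75) had near levels, and *Mmp9* (1.56 to 1.98), *Timp1* (1.11 to 1.65) and *Timp3* (0.07 to 0.12) were the lowest. Thus the TIMP of resting RAW264.7 cells was *Timp1*, which made up 99.6% of the summed FPKM of *Timp1*, *Timp2* and *Timp3* on average, whereas in resting BMDMs *Timp2* made up 98.8%.

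**Figure D1:**
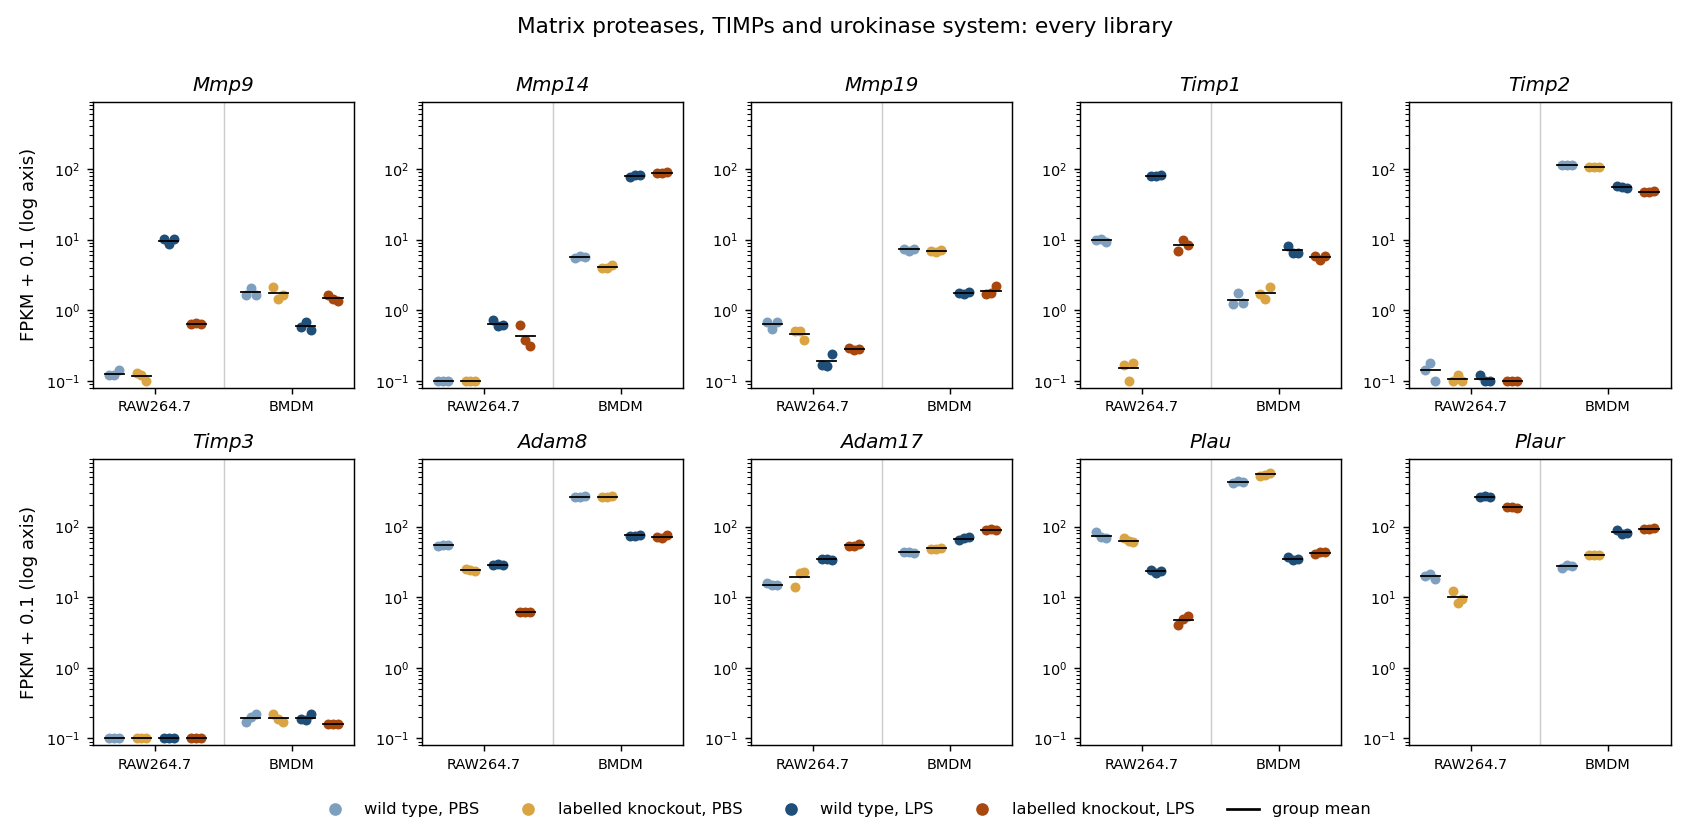
FPKM of the 10 genes in each of the 24 libraries, on a log axis after adding 0.1 so that values of 0 can be drawn; each point is a library and each bar a group mean. *Timp2* lies above 46 FPKM in all BMDM libraries and at or under 0.08 in all RAW264.7 libraries, and *Timp1* with PBS drops from above 9 to at most 0.08 FPKM in the RAW264.7 libraries labelled knockout.

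The response to LPS of wild-type cells was read first. In wild-type RAW264.7, 5 of the 9 genes tested rose and 3 fell, beside 18.3% of all genes tested that were DEGs (5.8% higher and 12.5% lower). In wild-type BMDMs 4 of 10 rose and 5 fell, beside 40.4% (7.94% higher and 32.5% lower). *Mmp14*, *Timp1*, *Adam17* and *Plaur* rose in both cell types, *Mmp19*, *Adam8* and *Plau* fell in both, and *Mmp9* rose in RAW264.7 and fell in BMDMs. In bulk RNA, fewer cells of a type and less RNA per cell cannot be told apart.

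Among the metalloproteinases, *Mmp9* reached 10.09, 8.68 and 9.93 FPKM in wild-type RAW264.7 with LPS, up from 0.02, 0.02 and 0.04 (log2 fold change 6.25 ± 0.12, SE, n = 3 per group; adjusted p = 9.65e-10, limma). In BMDMs it went from 1.56, 1.98 and 1.56 FPKM to 0.48, 0.57 and 0.42 (log2 fold change -1.61 ± 0.16, adjusted p = 1.03e-05, limma). Wild-type libraries with and without LPS did not overlap in either cell type. *Mmp14* had 48, 43 and 44 counts in RAW264.7 with LPS against 0 in each library with PBS, at least 45.8-fold higher per counted read when 3 counts are taken as the limit for the PBS group. In BMDMs *Mmp14* rose from 5.47, 5.75 and 5.49 FPKM to 77.51, 81.2 and 82.82, a 14.5-fold ratio of means (log2 fold change 3.83 ± 0.05, adjusted p = 1.90e-11, limma). *Mmp19*, a secreted metalloproteinase, fell from 7.2, 6.84 and 7.36 to 1.63, 1.57 and 1.7 FPKM in BMDMs (log2 fold change -2.06 ± 0.09, adjusted p = 3.10e-08, limma). In RAW264.7 it fell from 79 to 13 counts over the 3 libraries (log2 fold change -1.75 ± 0.18, adjusted p = 4.76e-05, limma), and with a pseudocount of 1 that change was -0.49 and no DEG.

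Of the inhibitors, *Timp1* rose from 9.62 ± 0.411 to 80.7 ± 1.73 FPKM (SD, n = 3) in wild-type RAW264.7 and from 1.31 ± 0.294 to 6.95 ± 1.01 in wild-type BMDMs, log2 fold changes of 3.06 ± 0.21 and 2.33 ± 0.18 (SE). *Timp2* was at 57.1, 54.81 and 53.17 FPKM in BMDMs with LPS, below every PBS library, and fell by 1.03 on the log2 scale (adjusted p = 1.31e-08, limma). Under median-ratio scaling its log2 fold change was -0.23 and it was no DEG, and the same held with edgeR (-0.26) and DESeq2 (-0.23). *Timp3* was within 0.07 to 0.12 FPKM in wild-type BMDMs under both treatments and passed no call in limma, while edgeR gave it a log2 fold change of 0.78 (adjusted p = 0.0309).

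The sheddases moved in opposite directions. *Adam17* rose in RAW264.7 from 15 ± 0.494 to 34.3 ± 0.405 FPKM (log2 fold change 1.19 ± 0.17, adjusted p = 0.000443, limma) and in BMDMs from 43 ± 0.707 to 67.7 ± 3.31 (0.65 ± 0.05, adjusted p = 8.09e-07, limma), where median-ratio scaling gave 1.45. *Adam8* fell from 54.3 ± 1.55 to 28.5 ± 0.45 FPKM in RAW264.7 (log2 fold change -0.93 ± 0.06) and from 263 ± 5.29 to 74.7 ± 1.44 in BMDMs (-1.81 ± 0.05), with no overlap between PBS and LPS in either cell type.

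The urokinase pair split as well, with the enzyme falling and its receptor rising. *Plau* dropped in BMDMs to 36.46, 34 and 34.66 FPKM, 12.2-fold below the PBS mean (log2 fold change -3.60 ± 0.05, adjusted p = 2.67e-11, limma), and in RAW264.7 to 24.52, 21.88 and 23.69 FPKM, 3.18-fold below it (-1.66 ± 0.12). *Plaur* climbed in RAW264.7 to 264.56, 268.68 and 264.02 FPKM, 13.6-fold above the PBS mean (log2 fold change 3.76 ± 0.13, adjusted p = 3.96e-08, limma), and in BMDMs to 89.3, 78.07 and 80.36, 3.01-fold above it (1.58 ± 0.06). The ratio of *Plaur* to *Plau* in mean FPKM therefore passed from below 1 to above 1 in both cell types.

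**Figure D2:**
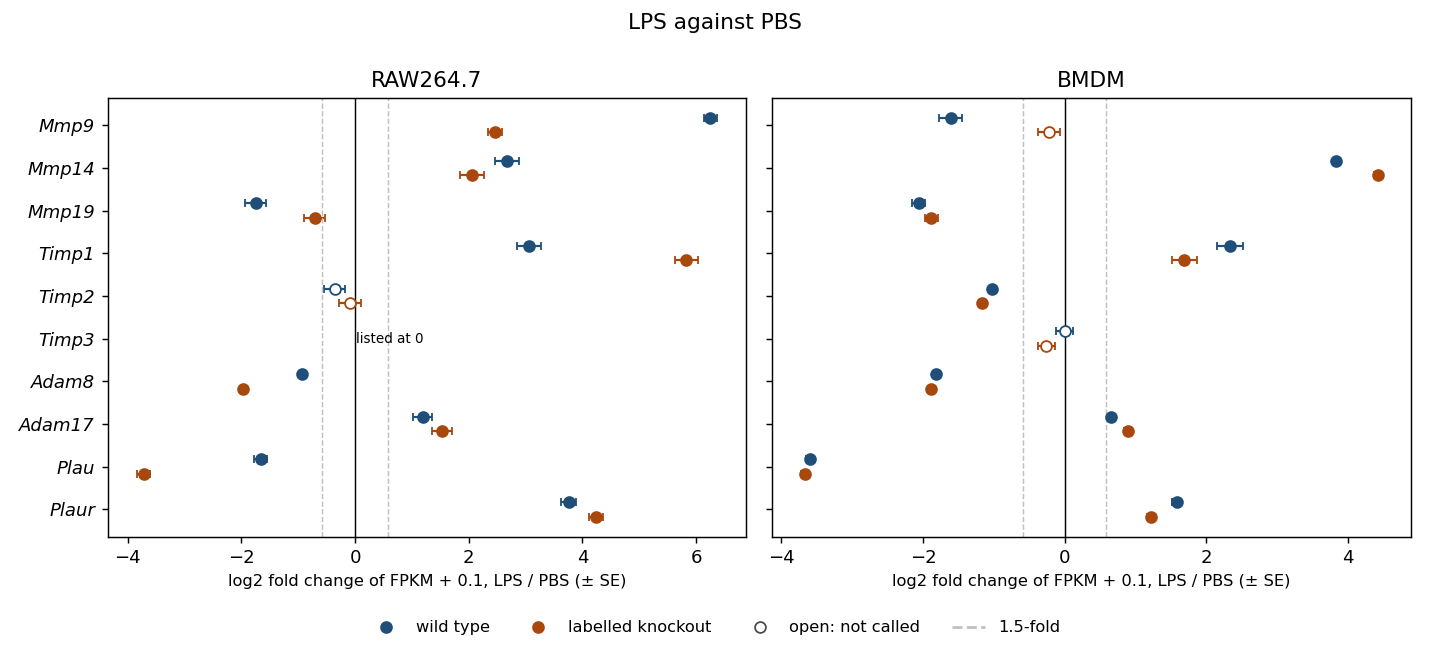
Log2 fold change of FPKM + 0.1, LPS against PBS, for each gene in wild type and in the libraries labelled knockout, with its standard error from limma; filled points are DEGs, dashed lines mark 1.5-fold and the panels have their own x scales. *Mmp14*, *Timp1*, *Adam17* and *Plaur* lie to the right and *Adam8* and *Plau* to the left in all 4 kinds of cell, and *Mmp9* is at 6.25 in wild-type RAW264.7 and at -1.61 in wild-type BMDMs.

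The sequences before the starts of the 4 genes that rose with LPS in both wild types are shown because they moved together. They are the 250 bases upstream of each RefSeq start (GRCm38.p6), in the direction of the gene. RefSeq promoters matched 7 of the 10 genes, *Mmp14*, *Timp1*, *Timp2*, *Timp3*, *Adam8*, *Adam17* and *Plaur*. Capitals mark matches on either strand to an AP-1 site (TGANTCA), an NF-kB site (GGG, any 2 bases, TTTCC), an interferon response element (GAAA, any 2 bases, GAAA), a GC box (GGGCGG) or a TATA box (TATAAA).
Mmp14 (chr14:54431348-54431597, plus strand): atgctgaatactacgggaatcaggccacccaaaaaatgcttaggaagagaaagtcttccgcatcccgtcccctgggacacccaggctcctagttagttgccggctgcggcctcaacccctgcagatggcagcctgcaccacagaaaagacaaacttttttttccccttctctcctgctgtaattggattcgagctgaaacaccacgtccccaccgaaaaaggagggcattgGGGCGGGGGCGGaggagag
Timp1 (chrX:20869916-20870165, plus strand): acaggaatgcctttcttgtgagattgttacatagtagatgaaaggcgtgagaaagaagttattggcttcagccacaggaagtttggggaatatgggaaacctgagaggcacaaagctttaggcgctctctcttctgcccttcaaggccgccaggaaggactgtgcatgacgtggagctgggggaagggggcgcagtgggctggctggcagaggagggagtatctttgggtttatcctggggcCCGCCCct
Adam17 (chr12:21373633-21373882, minus strand): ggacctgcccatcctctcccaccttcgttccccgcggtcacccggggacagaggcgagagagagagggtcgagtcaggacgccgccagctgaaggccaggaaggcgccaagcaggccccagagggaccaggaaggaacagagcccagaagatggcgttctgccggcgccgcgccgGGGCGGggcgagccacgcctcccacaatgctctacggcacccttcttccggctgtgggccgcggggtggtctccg
Plaur (chr7:24462233-24462482, plus strand): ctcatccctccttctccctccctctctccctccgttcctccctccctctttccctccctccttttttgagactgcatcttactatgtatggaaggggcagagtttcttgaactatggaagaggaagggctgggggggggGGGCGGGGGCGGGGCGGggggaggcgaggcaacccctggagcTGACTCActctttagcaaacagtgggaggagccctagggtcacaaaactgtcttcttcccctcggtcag
*Plaur* held the only AP-1 match among the 7 promoters, TGACTCA at 69 to 63 bases before its start, a motif present in 6.75% of 32851 promoters of this length. It also had 3 GC box matches, of which the 2 nearest to the start share a base, and *Mmp14* had 2, while the other 5 promoters had 1 each, beside 32.7% of all promoters with a match. No NF-kB, interferon response or TATA match was found in any of the 7 windows, against 1.41%, 2.98% and 12.4% of all promoters. A match describes letters and not a bound site.

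The summed levels of the 3 metalloproteinases and of the 3 TIMPs among the 10 genes followed from these changes. *Mmp9*, *Mmp14* and *Mmp19* together went from 0.557 ± 0.085 to 10.2 ± 0.847 FPKM (SD, n = 3) with LPS in wild-type RAW264.7, where *Mmp9* then made up 93.8% of the sum. In wild-type BMDMs the sum went from 14.4 ± 0.17 to 82.6 ± 2.73 FPKM, and *Mmp14* made up 97.4% of it with LPS. This sum is not that of the whole family in BMDMs. *Mmp13* went from 10.8 to 760 FPKM there, and *Mmp12*, named after its value was seen, was at 38.2 with PBS and 29.5 with LPS. The summed TIMPs moved from 9.66 ± 0.451 to 80.7 ± 1.72 FPKM in wild-type RAW264.7 and from 114 ± 0.777 to 62.1 ± 2.91 in wild-type BMDMs. The BMDM sum is mostly *Timp2*, whose log2 fold change with LPS was -0.23 and no DEG under median-ratio scaling, so its fall depends on the scaling.

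**Figure D3:**
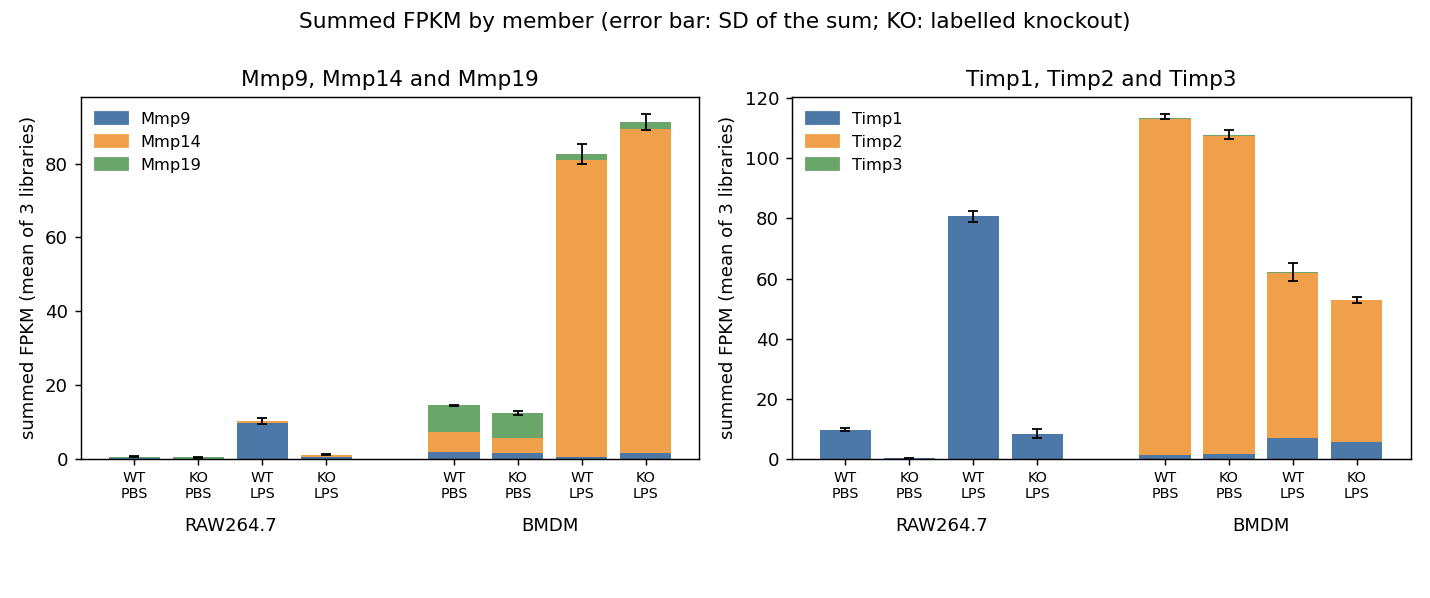
Summed FPKM of *Mmp9*, *Mmp14* and *Mmp19* (left) and of the 3 TIMPs (right) by group, without median-ratio scaling. Coloured parts are the group means of single genes, and error bars are the SD of the sum over 3 libraries. The TIMP bar is *Timp1* in RAW264.7 and mostly *Timp2* in BMDMs, and the libraries labelled knockout of RAW264.7 reach 0.0567 FPKM with PBS and 8.23 with LPS against 9.66 and 80.7 in wild type.

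The next question was how these genes differed between the 2 genotypes. In resting RAW264.7, 3 of the 9 genes tested were lower in the libraries labelled knockout and none was higher, beside 8.55% of all genes tested that were DEGs (4.79% higher and 3.77% lower). *Timp1* was nearly absent from them, with 1, 0 and 1 counts against 115, 143 and 107 in wild type. Per counted read, the wild-type level was 200-fold that of the libraries labelled knockout (95% exact binomial interval of the ratio 55.1 to 1661, counting error only), and the fitted log2 fold change was -6.06 ± 0.21 (adjusted p = 2.30e-07, limma). *Adam8* fell from 52.59, 55.52 and 54.93 FPKM to 24.81, 24.3 and 23.35 (log2 fold change -1.17 ± 0.06, adjusted p = 3.68e-06, limma). *Plaur* was at 12.27, 8.2 and 9.21 FPKM against 17.94 to 21.04 (log2 fold change -0.99 ± 0.13, adjusted p = 0.00133, limma). For these 3 genes replicate 1 of the labelled knockout also lay below every wild-type library, and without it the count of DEGs was again 3.

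The same library differed from its group in *Adam17*, which measured 13.63, 22 and 22.48 FPKM against 14.61 to 15.57 in wild type. The log2 fold change was 0.33 ± 0.17 (adjusted p = 0.223, limma) and, without replicate 1, 0.56 (adjusted p = 6.44e-05), still under 1.5-fold. *Plau* (log2 fold change -0.23) and *Mmp19* (-0.45) did not pass, and *Mmp9*, *Mmp14* and *Timp2* were at 7 or fewer counts per group in both genotypes.

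With LPS, 4 of the 9 genes were lower and 1 was higher in the RAW264.7 libraries labelled knockout, beside 17.3% DEGs among all genes tested (9.73% higher and 7.6% lower). *Mmp9* measured 0.53, 0.56 and 0.53 FPKM against 10.09, 8.68 and 9.93, a 17.7-fold difference of means (log2 fold change -3.91 ± 0.12, adjusted p = 7.73e-08, limma). *Timp1* measured 6.68, 9.74 and 8.27 FPKM against 79.09, 80.37 and 82.51, a 9.8-fold difference (log2 fold change -3.29 ± 0.21, adjusted p = 1.03e-05, limma). *Plau* was 4.95-fold lower, at 3.99, 4.81 and 5.35 FPKM against 24.52, 21.88 and 23.69 (log2 fold change -2.29 ± 0.12, adjusted p = 3.42e-06, limma). *Adam8* was 4.68-fold lower, at 6.06, 6.17 and 6.04 FPKM against 28.4, 28.96 and 28.07 (log2 fold change -2.21 ± 0.06, adjusted p = 6.97e-08, limma). For all 4 genes the ranges of the genotypes lay far apart.

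*Adam17* was the gene that was higher, at 53.78, 53.7 and 56.8 FPKM against 34.06 to 34.81 (log2 fold change 0.67 ± 0.17, adjusted p = 0.0171, limma). Its adjusted p rose above 0.05 when any 1 of 3 libraries was left out, at 0.0537 without replicate 3 of the labelled knockout with LPS, 0.0506 without replicate 2 and 0.0518 without replicate 3 of wild type with LPS. *Plaur* was at 185.28 to 187.84 FPKM against 264.02 to 268.68, which is under 1.5-fold (log2 fold change -0.51 ± 0.13, adjusted p = 0.0217, limma). *Mmp14* had 36, 22 and 15 counts against 48, 43 and 44 (log2 fold change -0.62 ± 0.21, adjusted p = 0.0604, limma), and became a DEG without replicate 1 of the labelled knockout with LPS (-0.90, adjusted p = 0.00192). *Mmp19*, with 24 counts against 13, had a log2 fold change of 0.58, just under 1.5-fold, and passed under median-ratio scaling (0.60, adjusted p = 0.0355).

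Whether the genotype difference itself depended on LPS was tested as an interaction, in which 4 of 9 genes were DEGs in RAW264.7 (1 higher and 3 lower) beside 1.95% of all genes tested (0.905% higher and 1.04% lower). The difference was larger with LPS for *Mmp9* (-3.79 ± 0.16, log2, adjusted p = 6.54e-06, limma), *Plau* (-2.06 ± 0.17, adjusted p = 0.000368) and *Adam8* (-1.04 ± 0.09, adjusted p = 0.000421). For *Mmp9* the PBS groups held 4 and 3 counts, and edgeR gave an adjusted p of 0.0933. *Timp1* had a positive interaction (2.77 ± 0.30, adjusted p = 0.00157, limma), since LPS raised it 8.39-fold in wild type but from 2 to 273 counts in the libraries labelled knockout, a ratio of 172 per counted read (95% interval 47.3 to 1431). With a pseudocount of 1 this interaction was 0.18 (adjusted p = 0.792) and with 0.01 it was 4.55 (adjusted p = 0.0777).

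Within the RAW264.7 libraries labelled knockout, LPS raised 5 of the 9 genes and lowered 3, beside 22.1% DEGs (7.45% higher and 14.6% lower), namely *Mmp9*, *Mmp14*, *Timp1*, *Adam17* and *Plaur* on one side and *Mmp19*, *Adam8* and *Plau* on the other. *Plau* fell 13.4-fold in them (log2 fold change -3.72 ± 0.12), *Adam8* 3.97-fold (-1.97 ± 0.06), and *Plaur* rose 18.9-fold (4.24 ± 0.13). *Mmp9* went from 3 to 71 counts, a ratio of 29.9 per counted read (95% interval 9.82 to 148), and *Mmp14* from 0 to 73, at least 30.7-fold, although with a pseudocount of 1 *Mmp14* was no DEG there (log2 fold change 0.41). The fall of *Mmp19* in them (log2 fold change -0.71, from 60 to 24 counts) was no DEG with edgeR (adjusted p = 0.0863) or under median-ratio scaling (-0.52).

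**Figure D4:**
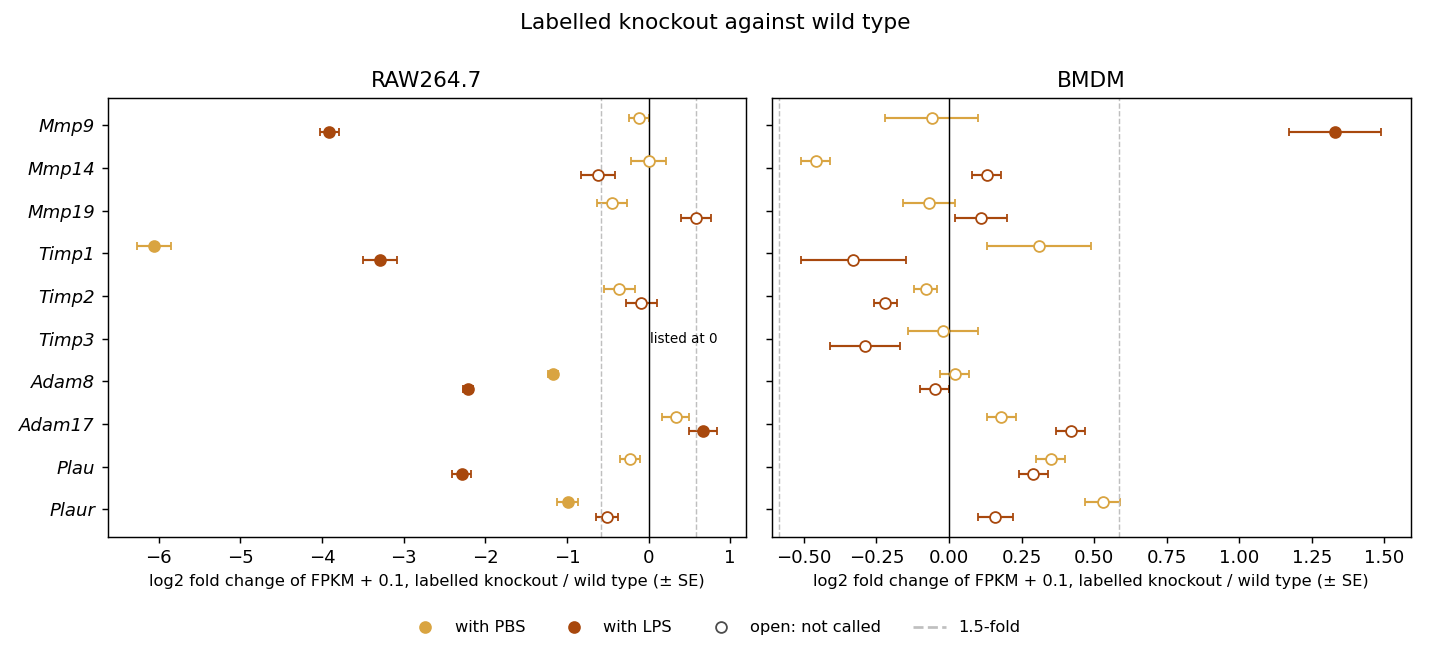
Log2 fold change of FPKM + 0.1, labelled knockout over wild type, under PBS and under LPS, with its standard error from limma; filled points are DEGs, dashed lines mark 1.5-fold and the panels have their own x scales. In RAW264.7 *Timp1* lies at -6.06 and -3.29 and *Mmp9* at -3.91 with LPS, whereas in BMDMs the filled point is *Mmp9* with LPS at 1.33.

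In resting BMDMs none of the 10 genes was a DEG between knockout and wild type, beside 1.82% of all genes tested (0.901% higher and 0.916% lower). An adjusted p under 0.05 with a change under 1.5-fold was found for 3 of them, and the share of all genes at that level was not counted. *Plaur* stood at 39.86, 39.11 and 39.68 FPKM in knockout against 26.17, 28.59 and 27.63 (log2 fold change 0.53 ± 0.06, adjusted p = 0.000848, limma). *Plau* stood at 523.29, 543.09 and 573.16 against 410.7, 437.05 and 434.44 (0.35 ± 0.05, adjusted p = 0.00523, limma). *Mmp14* stood at 3.91, 3.87 and 4.29 against 5.47, 5.75 and 5.49 (-0.46 ± 0.05, adjusted p = 0.00106, limma). The genotypes did not overlap for any of these 3 genes, nor for *Timp2* and *Adam17*, whose adjusted p were 0.448 and 0.0649 (limma). *Timp2* and *Adam17* had log2 fold changes of -0.08 and 0.18. The share of all genes without such overlap was not counted either.

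With LPS, 1 of the 10 genes was a DEG in BMDMs, beside 4.76% of all genes tested (3.23% higher and 1.53% lower). *Mmp9* was 2.82-fold higher in knockout, at 1.56, 1.35 and 1.24 FPKM against 0.48, 0.57 and 0.42 (log2 fold change 1.33 ± 0.16, adjusted p = 0.000445, limma), from 304 counts against 115. It remained a DEG in all 16 alternatives. *Mmp9* is also a neutrophil granule gene, and the summed FPKM of 10 neutrophil and granule markers was 49.2 to 50.3 in these knockout libraries against 39.8 to 41.6 in wild type, with *Ly6g* and *Retnlg* listed at 0 in both and *Csf3r* making up most of it (42.69, 43.96 and 43.86 against 32.95, 34.11 and 34.24). Outside *Csf3r*, the means in knockout and wild type were 2.98 and 3.17 FPKM for *S100a8*, 2.39 and 2.97 for *S100a9*, 0.567 and 0.59 for *Ngp*, 0.23 and 0.18 for *Camp* and 0.02 and 0.04 for *Ltf*, so that of these only *Camp* had the larger mean in knockout. The part of these markers in the *Mmp9* difference was not tested. *Adam17* (89.93, 92.02 and 89.77 FPKM against 64.09, 68.32 and 70.62), *Plau* (41.29 to 43.87 against 34 to 36.46) and *Timp2* (46.64 to 48.2 against 53.17 to 57.1) had adjusted p under 0.05 with log2 fold changes of 0.42, 0.29 and -0.22, under 1.5-fold. The share of all genes at that level was not counted, since the 4.76% above holds genes that also passed the 1.5-fold cut. The genotypes did not overlap for *Adam17*, *Plau* and *Timp2*. The same held for *Mmp14*, *Timp1*, *Timp3* and *Plaur*, whose adjusted p were 0.0946 to 0.295 (limma). The share of all genes without overlap was not counted. *Timp3* had 31 counts in knockout against 52. Scaled by median ratios, *Mmp14* and *Plaur* were at -0.03 and 0.01 and *Timp1* and *Timp3* at -0.49 and -0.41, none a DEG. Under median-ratio scaling *Plau* was at 0.13 with an adjusted p of 0.17 (limma), while *Adam17* (0.27, adjusted p = 0.00517) and *Timp2* (-0.37, adjusted p = 0.000264) kept an adjusted p under 0.05.

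Within knockout BMDMs, LPS raised 4 of the 10 genes and lowered 4, beside 38.9% DEGs (8.02% higher and 30.9% lower). *Mmp14* rose 21.9-fold (log2 fold change 4.42 ± 0.05), *Plaur* 2.34-fold, *Timp1* 3.32-fold and *Adam17* 1.85-fold, while *Plau* fell 12.8-fold (-3.67 ± 0.05), *Adam8* 3.69-fold, *Mmp19* 3.81-fold and *Timp2* 2.25-fold. As in wild type, the fall of *Timp2* was no DEG under median-ratio scaling (log2 fold change -0.47). *Mmp9* did not pass in knockout (-0.22 ± 0.16, adjusted p = 0.304, limma; 0.43 under median-ratio scaling). The interaction was a DEG for 2 of 10 genes, both higher, beside 2.93% of all genes tested (1.91% higher and 1.02% lower). These were *Mmp9* (1.39 ± 0.23, log2, adjusted p = 0.00684, limma) and *Mmp14* (0.59 ± 0.08, adjusted p = 0.002), of which *Mmp14* lay at the fold threshold and was no DEG under median-ratio scaling (0.48) or with edgeR (0.50).

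Ordered by mean level over the 8 groups, *Plaur* was highest in wild-type RAW264.7 with LPS (266 FPKM) and lowest in RAW264.7 labelled knockout with PBS (9.89), and no neighbouring groups in that order overlapped. *Timp1* was also highest in wild-type RAW264.7 with LPS (80.7 FPKM), and the next 3 groups, wild-type RAW264.7 with PBS (9.62), RAW264.7 labelled knockout with LPS (8.23) and wild-type BMDMs with LPS (6.95), each overlapped with its neighbour. *Plau* ran from 547 FPKM in knockout BMDMs with PBS to 4.72 in RAW264.7 labelled knockout with LPS, with no overlap between neighbours. *Adam17* was highest in knockout BMDMs with LPS (90.6 FPKM), and for it only the 2 RAW264.7 groups with PBS, at the low end, overlapped.

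Other genes of the same systems were read from a list of 53, of which 44 were tested in RAW264.7 and 47 in BMDMs. In resting RAW264.7, 4 were lower in the libraries labelled knockout and 0 higher, which is 9.09% of those tested and close to the 8.55% of all genes. Among them were *Cd44*, a hyaluronan receptor that can dock MMP9 (32.5 to 16.9 FPKM, log2 fold change -0.94), the ADAM17 adaptor *Rhbdf1* (1.44 to 0.67, -1.01) and *Bsg*, an inducer of metalloproteinases (245 to 165, -0.61), the last named after its value was seen, with adjusted p from 1.61e-05 to 0.0356 (limma). With LPS 11 were lower and 3 higher, 31.8% beside 17.3% of all genes, among them the EGF receptor ligand *Areg* (1 to 0.0467 FPKM, -3.00) and *Serpinb2*, the plasminogen activator inhibitor PAI-2 (2.32 to 5.1, 1.12). Of 7 tested substrates of ADAM17, 4 were lower there, *Areg* and, named after their values were seen, *Tnfrsf1a* (45.2 to 23 FPKM, -0.97), *Tnfrsf1b* (65.9 to 40.3, -0.71) and *Hbegf* (0.66 to 0.397, -0.61). In BMDMs 1 of the list (2.13%, beside 1.82% of all genes) was higher in resting knockout cells, *Serpinb2* (0.0867 to 0.197 FPKM, 0.67, named after its value was seen). With LPS 4 passed in knockout BMDMs (8.51%, beside 4.76% of all genes), of which 3 were lower, the collagenase *Mmp13* (760 ± 50.8 to 457 ± 12.7 FPKM, SD, -0.73), *Serpinb2* (2.27 to 1.28, -0.78) and *Furin*, a convertase that activates pro-MMP14 and pro-ADAM17 (38.1 to 24.7, -0.62), and 1 was higher, the metalloproteinase inhibitor *Reck* (0.177 to 0.37, 0.79, named after its value was seen), with adjusted p from 4.30e-05 to 0.00565 (limma). Under median-ratio scaling 6 were lower and 1 higher in knockout BMDMs with LPS, and 0 passed in resting ones. The interaction was a DEG for 6 list genes in RAW264.7 (13.6%, beside 1.95%), 2 higher and 4 lower, with *Areg* at -2.58, *Tnfrsf1b* at -1.18 and *Serpinb2* at 1.25. In BMDMs it was lower for 3 (6.38%, beside 2.93%), *Serpinb2* (-1.45), *Hbegf* (-0.80) and *Furin* (-0.61).

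LPS raised 14 and lowered 6 of the 44 list genes in wild-type RAW264.7, and raised 15 and lowered 11 of the 47 in wild-type BMDMs, or 21 and 5 under median-ratio scaling. The shares were 45.5% in RAW264.7, beside 18.3% of all genes, and 55.3% in BMDMs, beside 40.4%. In BMDMs *Mmp13* rose from 10.8 to 760 FPKM (log2 fold change 6.12), far above the 80.5 FPKM of *Mmp14*, and the aggrecanase *Adamts4* from 0.02 to 10.1 (6.42). In RAW264.7 *Tnf*, the main substrate of ADAM17, rose from 47.2 to 1988 FPKM (5.39) and its receptor *Tnfrsf1b* from 2.77 to 65.9 (4.54). In the RAW264.7 libraries labelled knockout LPS raised 11 and lowered 7 (40.9%, beside 22.1% of all genes), among them *Serpinb2* (5.70) and *Tnf* (5.44), and in knockout BMDMs it raised 15 and lowered 8 (48.9%, beside 38.9%), or 21 and 4 under median-ratio scaling, among them *Adamts4* (6.53) and *Tnf* (5.92).

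The genes next to the RAW264.7 genes that changed at least 4-fold were also read, out to 100 kb. *Timp1* lies on chromosome X from 20870166 to 20874735 on the plus strand (GRCm38, GENCODE M21), overlapping *Syn1* on the other strand. Overlaps are of whole gene spans, and overlap of exons was not checked. *Syn1* reached at most 0.71 FPKM in RAW264.7, but 5.21 to 5.69 in wild-type BMDMs with PBS, above *Timp1* there. Since the protocol marks no strand, reads of the 2 genes cannot be told apart in any exonic stretch they may share. The same holds for *Adam17* (chromosome 12, 21323509 to 21373632, minus strand) and *Iah1*, which stayed between 6.24 and 11.9 FPKM in all 24 libraries, and for *Mmp19* (chromosome 10, 128790910 to 128800824, plus strand) and *Tmem198b*, whose mean in wild-type BMDMs went from 2.44 FPKM with PBS to 0.397 with LPS. Of 5 neighbours of *Timp1*, *Cfp*, which encodes properdin, was lower in the libraries labelled knockout with PBS (114 to 29.1 FPKM, log2 fold change -2.01) and with LPS (135 to 41.5, -1.70), and *Araf*, *Uxt*, *Elk1* and *A230072C01Rik* passed in neither. Of 7 neighbours of *Mmp9* (chromosome 2, 164940780 to 164955850, plus strand), *Pltp*, the phospholipid transfer protein gene, was lower with PBS (-1.09) and with LPS (-1.54), *Cd40* was lower with PBS (-1.65), *Zfp335* was higher with LPS (1.01) and the others did not pass. Next to *Adam8* (chromosome 7, 139978932 to 139992562, minus strand), *Spef1l* (-1.21) and the overlapping *Gm16201* (-0.69) were lower with LPS, and next to *Plau* (chromosome 14, 20836660 to 20843385, plus strand) *Camk2g* and *Vcl* did not pass.

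The gene whose log2 expression was most like each of these over the 12 libraries of a cell type is given as a description, since these libraries share 4 conditions and most genes that answer LPS will rank high. In RAW264.7 it was *Spp1* for *Timp1* (Pearson r = 0.996), *Odc1* for *Mmp9* (0.993), *Rap1b* for *Plaur* (0.999), *Capn2* for *Adam8* (0.994), *Eif4g2* for *Adam17* (0.998), *Marcks* for *Mmp14* (0.985), *Klf16* for *Mmp19* (0.967) and *Slc4a2* for *Timp2* (0.813), out of 11336 genes. In BMDMs, out of 10555 genes, it was *Cdkn1a* for *Mmp14* (0.999), *Tex261* for *Plau* (1.000), *Ccnd1* for *Adam8* (0.999), *Lmo2* for *Timp2* (0.999), *Irf2bp2* for *Mmp19* (0.999), *Srsf3* for *Plaur* (0.993), *Hivep3* for *Adam17* (0.994), *Rab20* for *Timp1* (0.991), *Atg4a* for *Mmp9* (0.985) and *Fbrsl1* for *Timp3* (0.805).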

How the data were processed

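Counts of reads per gene and FPKM were deposited by the authors for the 12 libraries of each cell type. FPKM recomputed from the counts, the gene length and the library total lay within 1% of the deposited FPKM for 99.9% (RAW264.7) and 99.5% (BMDMs) of values where the gene had more than 50 counts. Per the labels the build is mm10, while 2.76% of 52073 genes shared with GENCODE M21 have its GRCm38 coordinates, so locations are given from GENCODE M21. Aligner and counting program: not given in the sources used here. Groups were taken from sample titles, which the genotype tag contradicts for 12 of 24 samples.

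limma 3.58.1 under R 4.3.3 fitted means of the 4 groups of a cell type to log2(FPKM + 0.1), for genes with an FPKM above 0 in at least 1 library, in two-sided tests. limma, the adjusted p of 0.05 and 1.5-fold follow the study's methods, and log2(FPKM + 0.1) as its input was chosen here. The alternatives were other pseudocounts, a filter of 1 FPKM in 3 libraries, TPM and median-ratio scaling, the 2 groups alone, a replicate block, calls on the adjusted p without the fold, fits without 1 library, edgeR 4.0.16 (quasi-likelihood, with and without its count filter) and DESeq2 1.42.0 on counts. Fits were tested on simulated data. All pairs of libraries within a group differed by more than the sampling noise of their counts, so none was treated as a repeat deposit of another. Ratios of groups with 3 or fewer counts were taken from counts per library total, with exact 95% binomial intervals or, at 0, a limit of 3 counts over the group.

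The 10 genes and the other lists were chosen with earlier results of these data known. All 10 are named, with up to 3 DEGs of the list of 53 per comparison by size of change (mean of at least 1 FPKM in either group, libraries not overlapping), neighbours within 100 kb of genes changed 4-fold between genotypes (at least 1 FPKM in a group), the most alike gene, and *Olfml3*. Markers of fibroblast and stromal cells summed to at most 1.49 FPKM in any library, of endothelial cells to at most 6.03, of T, B and NK cells to at most 0.28 and of mast cells to at most 1. Some genes that these rules name are not reported here.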

Additional observations from a re-analysis of the deposited data

Results flagged for a closer look

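By the limma interaction test, 6 genotype differences changed with LPS. In RAW264.7 these were *Mmp9* (-3.79, log2), *Timp1* (2.77), *Adam8* (-1.04) and *Plau* (-2.06), and in BMDMs *Mmp9* (1.39) and *Mmp14* (0.59). The interactions of *Mmp9* and *Timp1* in RAW264.7 rest on PBS groups with 4 and 3 counts and with 365 and 2 counts.

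In other cases every library moved in one direction in RAW264.7 and in the opposite one in BMDMs, and the difference between the cell types was not tested because the tables were normalised separately. With LPS, *Mmp9* was lower in the labelled knockout of RAW264.7 (log2 fold change -3.91) and higher in knockout BMDMs (1.33). It rose with LPS in wild-type RAW264.7 (6.25) and fell in wild-type BMDMs (-1.61). In RAW264.7 *Plau* differed between genotypes by -0.23 (PBS) and -2.29 (LPS), and in BMDMs by 0.35 and 0.29. The RAW264.7 value with PBS had an adjusted p of 0.257 (limma) and ran from -0.29 to -0.04 over the alternatives. The BMDM value with LPS was 0.13 under median-ratio scaling (adjusted p = 0.17, limma). *Plaur* differed by -0.99 and -0.51 in RAW264.7, and by 0.53 and 0.16 in BMDMs, of which the value with LPS was 0.01 under median-ratio scaling (adjusted p = 1, limma) and 0.02 with edgeR. Because the RAW264.7 libraries labelled knockout hold more *Olfml3* than wild type, the contrast named knockout against wild type is not known to be the same in the 2 cell types.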

How the results depend on the processing

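Of 1589 fold changes of single genes refitted under an alternative, 1514 kept their direction and their side of the thresholds, 32 lost a call and 9 gained one. The other 34 changed sign, or moved off 0 by a rounding error, without being called under either setting, and 0 called values changed sign. The rounding errors were in *Mmp14* between genotypes in resting RAW264.7, where it was listed at 0 in both. On the adjusted p alone, 3 genes passed in resting BMDMs in place of 0, and 4 in BMDMs with LPS in place of 1. In RAW264.7 with LPS *Plaur* (adjusted p = 0.0217, limma) and *Mmp19* (0.0375) were added. *Plaur* was also added in the BMDM interaction (log2 value -0.36, adjusted p = 0.0338, limma). The share of all genes passing on the adjusted p alone was not counted. The BMDM interaction, 2 genes, came to 1 with a pseudocount of 1, under median-ratio scaling, with edgeR with or without its filter and with DESeq2, and to 1 to 2 when single libraries were left out. It was 1 without replicate 2 of wild type with PBS, replicate 1 or 2 of knockout with PBS, replicate 1 of wild type with LPS or replicate 3 of knockout with LPS, and the gene lost was *Mmp14*. Leaving out libraries also made DEGs of 3 more RAW264.7 interactions, *Mmp14* (-0.90 in place of -0.62, without replicate 1 of the labelled knockout with LPS), *Mmp19* (1.21 in place of 1.03, without replicate 3 of wild type with LPS) and *Plaur* (0.65 in place of 0.48, without replicate 1 of the labelled knockout with PBS).

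Deviations of libraries with the same replicate number in the title from their group means correlated between -0.058 and 0.084. Libraries with different numbers were not set beside them, so shared mice, cultures or batches were not tested. With the replicate number as a block, the members called stayed at 3, 5, 4, 8 and 8 in RAW264.7 and at 0, 1, 2, 9 and 8 in BMDMs, in the order PBS, LPS, interaction, LPS response of wild type and of knockout. Depth limits *Mmp9*, *Mmp14* and *Timp2* in resting RAW264.7, where groups hold 0 to 7 counts. A lower level in the labelled knockout, or a small difference either way, was therefore not detectable for them there.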
